A study of Oryctolagus cuniculus with 8 samples.

Results

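Retinal microglia were followed through 10 genes that are commonly used to mark these cells: AIF1, CSF1R, CX3CR1, P2RY12, TMEM119, ITGAM, TREM2, TYROBP, CTSS and CD74. They were picked by symbol, and each symbol had its own entry, so that they are 10 of the 25666 genes measured. RNA came from 8 retinas of male Chinchilla rabbits, labelled wild type and aged about 10 months, each fed 1 of 4 diets for 6 months. The normal diet (ND) was standard chow, the high-fat diet (HFD) was chow with 10% lard and 0.5% cholesterol, and the high-sucrose diet (HSD) was chow with 40% sucrose. The high-fat plus high-sucrose diet (HFSD) held the same shares of lard and cholesterol together with 35% sucrose, less sucrose than HSD. Strain, sex and feeding time were shared by all groups, and 2 retinas were sequenced per diet. The labels do not state that both retinas of a diet came from different rabbits, so the p values measure only the spread between these retinas, which may be technical. The study asked how these diets act on a retina used as a model of age-related macular degeneration, and the 10 genes address its microglia.

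Microglia are the resident macrophages of the retina. They settle there during development, survey the synaptic layers with fine processes, and need signals through the receptor CSF1R to survive. After injury or in disease they can retract their processes, take up debris, and raise lysosomal genes and genes of antigen presentation. In RNA of a whole retina, fewer microglia and less RNA per microglial cell cannot be told apart.

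Levels are given as FPKM, fragments divided by gene length and library depth, so that genes of different length can be compared. The FPKM steps gave library depths of 15764577 to 22785832 fragments, at which 1 fragment on a gene of 1 kilobase is worth 0.0439 to 0.0634 FPKM. The libraries differed in markers of other cells. GFAP, the intermediate filament of astrocytes and stressed Müller cells, was at 524 and 12.1 FPKM under ND, 216 and 203 under HFD, 2.37 and 1.08 under HSD, and 3.05 and 69.5 under HFSD. CLDN5, a tight junction protein of vessels, was at 28.0, 1.03, 20.3, 6.76, 1.16, 0.794, 0.534 and 6.85 FPKM in the same order. The summed level of 11 skeletal muscle genes was 580 FPKM in HSD replicate 2 and 56.7 to 100.5 elsewhere, and that of 15 pigment epithelium genes was 470 and 478 under ND and 121 to 275 under the other diets.

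The microglia genes were weakly expressed. Their means over the 8 retinas ran from 0.184 FPKM for ITGAM to 4.43 FPKM for CD74, between the percentiles 29.2 and 50.6 of all protein-coding genes, and a typical gene among the 12204 tested was at 13.8 FPKM. All 10 were detected in every retina. Between 3 and 257 fragments lay behind a value, and 16 of the 80 values rested on fewer than 20 fragments. CD74 and CX3CR1 reached 1 FPKM in all 8 retinas, while ITGAM did so in 0 and was therefore not among the genes tested, which leaves 9 members with a test. AIF1 and CTSS reached 1 FPKM in retinas fed no sucrose and in 0 of those fed it, so they were tested only through the retinas in which they were high, as were 1.07% of all tested genes. The plot of the 10 genes by diet shows every value.

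**Figure D1:**
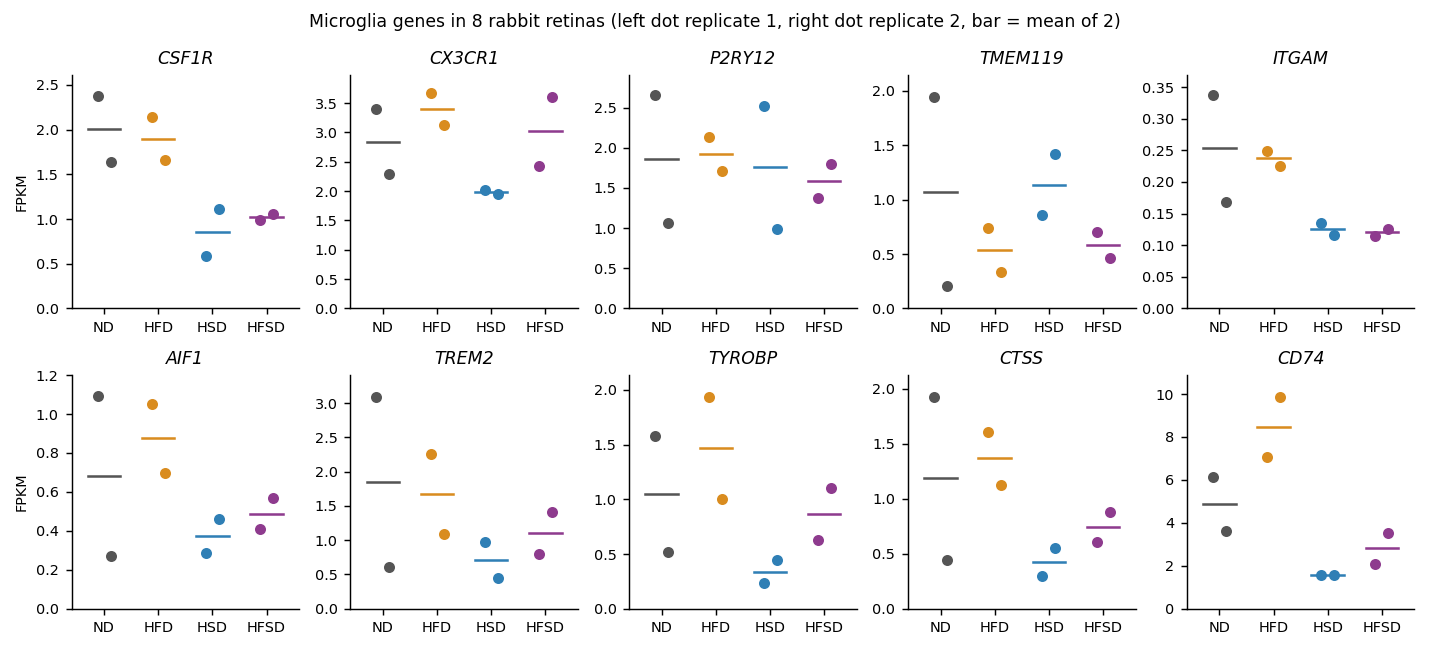
FPKM of the 10 microglia genes in each of the 8 retinas, grouped by diet on the horizontal axis, each panel with its own vertical axis from 0. Dots are retinas (left replicate 1, right replicate 2) and bars are the mean of 2; for CSF1R, ITGAM and CD74 the 4 retinas fed sucrose (HSD and HFSD) lie below the 4 fed no sucrose, and the ND dots lie furthest apart for TMEM119, TREM2, CTSS and AIF1.

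The surface receptors of resting microglia were not alike across the diets. CSF1R, the receptor on whose signal microglia depend for survival, was at 2.38 and 1.64 FPKM under ND (replicate 1, then replicate 2), 2.14 and 1.66 under HFD, 0.583 and 1.12 under HSD, and 0.989 and 1.05 under HFSD. All 4 retinas fed sucrose were below all 4 retinas fed no sucrose. By mean the order was ND (2.01±0.522), HFD (1.90±0.340), HFSD (1.02±0.0448) and HSD (0.850±0.378; s.d., n=2 each), in which ND overlapped HFD, and HFSD overlapped HSD.

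CX3CR1, the receptor for the neuronal chemokine fractalkine, was at 3.40 and 2.29 FPKM under ND, 3.68 and 3.12 under HFD, 2.03 and 1.95 under HSD, and 2.43 and 3.61 under HFSD. Both HSD retinas lay below both ND retinas, while HFD and HFSD overlapped ND. P2RY12, the purinergic receptor that steers microglial processes towards ATP and ADP, was at 2.66, 1.07, 2.13, 1.71, 2.52, 0.988, 1.37 and 1.80 FPKM in the same order, and no diet stood apart. In ND and in HSD its 2 retinas differed by more than the means of any 2 diets.

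TMEM119, a membrane protein that separates microglia from other macrophages, was at 1.94 and 0.208 FPKM under ND, 0.736 and 0.336 under HFD, 0.855 and 1.42 under HSD, and 0.699 and 0.466 under HFSD. The ND retinas were its highest and its lowest, and the lower value rested on 3 fragments (95% exact Poisson interval 0.0428 to 0.607 FPKM, counting error only). ITGAM, the integrin chain CD11b, was at 0.338, 0.169, 0.250, 0.226, 0.134, 0.116, 0.115 and 0.126 FPKM from 16 to 53 fragments. Here too the 4 retinas with sucrose lay below the other 4, at 0.123±0.00935 against 0.246±0.0702 FPKM (s.d., n=4 each).

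AIF1 encodes IBA1, the actin-bundling protein whose staining is the usual way to count microglia. It was at 1.09 and 0.272 FPKM under ND, 1.05 and 0.699 under HFD, 0.284 and 0.459 under HSD, and 0.408 and 0.568 under HFSD. ND replicate 2 was its lowest retina and ND replicate 1 its highest, so that every other retina lay within the range of the normal diet.

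TREM2, a lipid-sensing receptor, signals through TYROBP, the adaptor also called DAP12. TREM2 was at 3.09 and 0.604 FPKM under ND, 2.26 and 1.09 under HFD, 0.970 and 0.443 under HSD, and 0.805 and 1.41 under HFSD. TYROBP was at 1.58 and 0.519 FPKM under ND, 1.93 and 1.01 under HFD, 0.233 and 0.444 under HSD, and 0.631 and 1.11 under HFSD. Both were lowest on average in HSD, where TYROBP lay below both ND retinas and TREM2 did not.

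CTSS, cathepsin S, is the protease that trims the invariant chain, and CD74 is that chain, which escorts MHC class II molecules through the cell. CTSS was at 1.92 and 0.447 FPKM under ND, 1.61 and 1.13 under HFD, 0.301 and 0.551 under HSD, and 0.608 and 0.878 under HFSD, all inside the ND range except HSD replicate 1. CD74 was at 6.12 and 3.64 FPKM under ND, 7.05 and 9.86 under HFD, 1.55 and 1.58 under HSD, and 2.09 and 3.55 under HFSD, from 35 to 257 fragments. CD74 was the only member in which no 2 diets overlapped: HFD (8.46±1.99) was followed by ND (4.88±1.76), HFSD (2.82±1.03) and HSD (1.57±0.0202; s.d., n=2 each), and the gap between the neighbours ND and HFSD was only that from 3.64 to 3.55 FPKM.

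Within a diet, most members were higher in the same retina. In ND, all 10 were higher in replicate 1, by 1.45 times for CSF1R, 1.48 times for CX3CR1, 1.68 times for CD74 and up to 9.35 times for TMEM119, while 48.4% of all tested genes were higher there. In HFD, 9 of 10 were higher in replicate 1 (52.6% of tested genes), with CD74 the exception. In HFSD, 9 of 10 were higher in replicate 2, with TMEM119 the exception, and 49.0% of tested genes were higher in replicate 1. In HSD they were divided, 4 against 6. Replicates carry no order of their own, and these counts describe single pairs of retinas with no test.

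Summed over the 9 members other than CD74, the level was 18.4 and 7.22 FPKM under ND, 15.8 and 10.98 under HFD, 7.91 and 7.49 under HSD, and 8.05 and 11.01 under HFSD. Within ND, HFD and HFSD the retina with the higher sum was also the one with more GFAP and CLDN5, given above, and more HBB2, a haemoglobin chain (81.0 against 7.84 FPKM under ND, 71.7 against 14.9 under HFD, and 18.6 against 1.15 under HFSD). In HSD the sums were close, GFAP and CLDN5 were low in both, and HBB2 was at 0.229 and 42.1 FPKM. Over whole lists, the 15 of 16 endothelial genes with an entry summed to 388 and 451 FPKM in ND, 459 and 470 in HFD, 361 and 300 with HSD, and 360 and 341 with HFSD. Within ND, HFD and HFSD this sum was thus higher in the retina with less CLDN5. The same held for the endothelial gene KDR (75.8 and 126 FPKM in ND, 123 and 129 in HFD, 131 and 91.5 in HFSD). The endothelial marker EMCN was at 0 in ND replicate 2, HSD replicate 1 and HFSD replicate 1, and VWF was at 0 in the last 2 of these. The 6 of 13 blood genes with an entry summed to 8.33 to 82.6 FPKM without sucrose and 0.730 to 42.9 with it, and all 12 of Müller cells and astrocytes to 4443 to 5105 and 2851 to 3190. In ND the latter sum was higher in the retina with less GFAP (4618 in replicate 1 and 5105 in replicate 2). In HFD (5104 and 4443) and HFSD (2885 and 3133) it was higher in the retina with more GFAP. Whether these differences between the libraries have a part in the levels of the microglia genes was not tested.

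**Figure D2:**
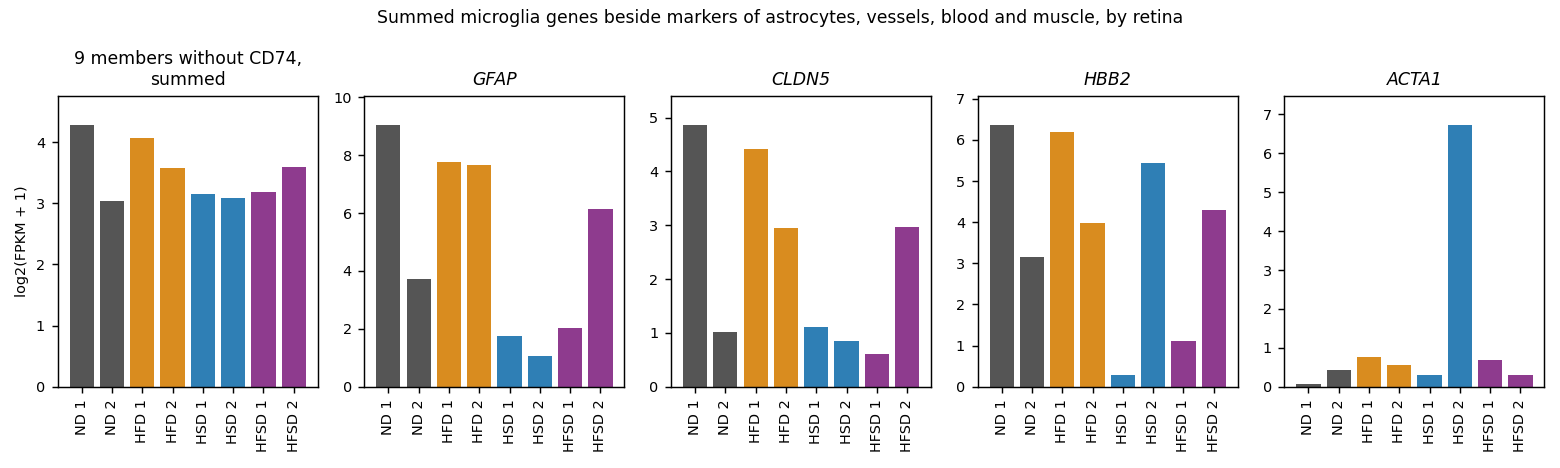
Summed level of the 9 members other than CD74 beside GFAP (astrocytes), CLDN5 (vessels), HBB2 (blood) and ACTA1 (skeletal muscle), as log2(FPKM + 1) in each of the 8 retinas, 1 bar a retina coloured by diet, axes from 0. In ND, HFD and HFSD the retina with the higher members' bar also has the higher GFAP, CLDN5 and HBB2 bar, and ACTA1 stands out only in HSD replicate 2. The summed endothelial genes, not drawn, were higher in the other retina of ND, HFD and HFSD.

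Each diet was then compared with ND by limma on log2(FPKM + 1), fitted over all 12204 tested genes, with p values adjusted over all of them. In HFD, 7 of the 9 tested members were above and 2 below ND, with a median log2 fold change of 0.19 against 0.0063 over all genes. That direction rested on single retinas: 1 of 9 was above without ND replicate 2 and 5 without HFD replicate 1, against 9 without ND replicate 1 and 8 without HFD replicate 2. On this scale CD74 was the member furthest from ND, with a log2 fold change of 0.70 (standard error, s.e., 0.279, limma adjusted p=0.998; 0.39 without ND replicate 2), and both HFD retinas lay above both ND retinas. It was the only 1 of the 9 so placed, as were 12.5% of all tested genes. CSF1R had a log2 fold change of -0.05 in HFD (s.e. 0.233), which turned to 0.13 without ND replicate 1 and to 0.071 without HFD replicate 2. By limma, 0 members had an adjusted p under 0.05, where 0.00819% of all genes did, and 1 had an unadjusted p under 0.05, where 4.31% of genes did. By the fold rule of the study, (mean FPKM + 1) over (mean ND FPKM + 1) past 0.62 or -0.62 on the log2 scale, CD74 passed the upper limit at 1.61 (0.949% of 19293 protein-coding genes passed it) and 0 members passed the lower (0.809%). Without HFD replicate 2, 0 members passed a limit, without HFD replicate 1 there were 2, and without ND replicate 1 there were 4. Without ND replicate 2, CD74 (1.33) no longer passed, and TMEM119 (0.522) was the only member past a limit, the lower one.

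In HSD, 8 of the 9 tested members were below ND, at a median of -0.53 against -0.0018 over all genes, and TMEM119 was above. Apart from AIF1 and CTSS, 6 of 7 were below. Of these 7, TREM2 and TYROBP also stayed under 1 FPKM in both HSD retinas, so they passed the filter only through other diets. Without ND replicate 1, 5 of 9 were below, at a median of -0.027, and without ND replicate 2 all 9 were, at a median of -0.88. CD74 had a log2 fold change of -1.16 (s.e. 0.279, limma adjusted p=0.362) and CSF1R one of -0.71 (s.e. 0.233, limma adjusted p=0.559). In CD74, CSF1R, CX3CR1 and TYROBP both HSD retinas lay below both ND retinas, 4 of 9 where 19.7% of all tested genes did so, and the untested ITGAM lay there too (log2 fold change -0.15 in a fit without the filter). By limma 0 members were called at an adjusted p under 0.05, against 0.0574% of genes, and 2, CD74 and CSF1R, had an unadjusted p under 0.05, against 7.2%. The fold rule took in CD74 (0.437), TREM2 (0.5996) and CSF1R (0.615) as lower, 3 of 10 members where 2.42% of genes passed, and 0 as higher (1.53%). The number past a limit was 5 without ND replicate 2 and 2 without HSD replicate 1 (CD74 and TREM2, both lower), and without ND replicate 1 it was 2, of which CD74 was lower (0.554) and TMEM119 higher (1.77). TREM2 passed although its HSD and ND retinas overlapped, since its ND mean of 1.85±1.76 FPKM rested on replicate 1.

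In HFSD, 8 of the 9 tested members were again below ND, but by less, at a median of -0.24 against -0.0040 over all genes. CX3CR1 was the one above, and apart from AIF1 and CTSS 6 of 7 were below. Of these 7, TMEM119 also stayed under 1 FPKM in both HFSD retinas and passed the filter through ND replicate 1 and HSD replicate 2. Without ND replicate 1 the direction turned, with 7 of 9 above and a median of 0.27, and without HFSD replicate 1 the median was -0.091 with 6 of 9 below. Without ND replicate 2 all 9 were below, at a median of -0.74. CD74 had a log2 fold change of -0.62 (s.e. 0.279, limma adjusted p=0.633), which was -0.31 without ND replicate 1, -0.93 without ND replicate 2 and -0.34 without HFSD replicate 1. CSF1R had one of -0.56 (s.e. 0.233, limma adjusted p=0.610). Both HFSD retinas lay below both ND retinas in these 2 of 9, where 20.6% of all tested genes did so, and in ITGAM (log2 fold change -0.16 without the filter). By limma 0 members were called, against 0.0164% of genes, and 1, CSF1R, had an unadjusted p under 0.05, against 8.07%. CD74 was the only member past a fold limit, at 0.6497 just past the lower one, which 2.4% of genes passed, and 0 members passed the upper (1.03%). Without ND replicate 1 or HFSD replicate 1, 0 members passed, without HFSD replicate 2 there were 2, and without ND replicate 2 there were 5. The 3 comparisons share the ND retinas, so their directions are not independent of each other.

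**Figure D3:**
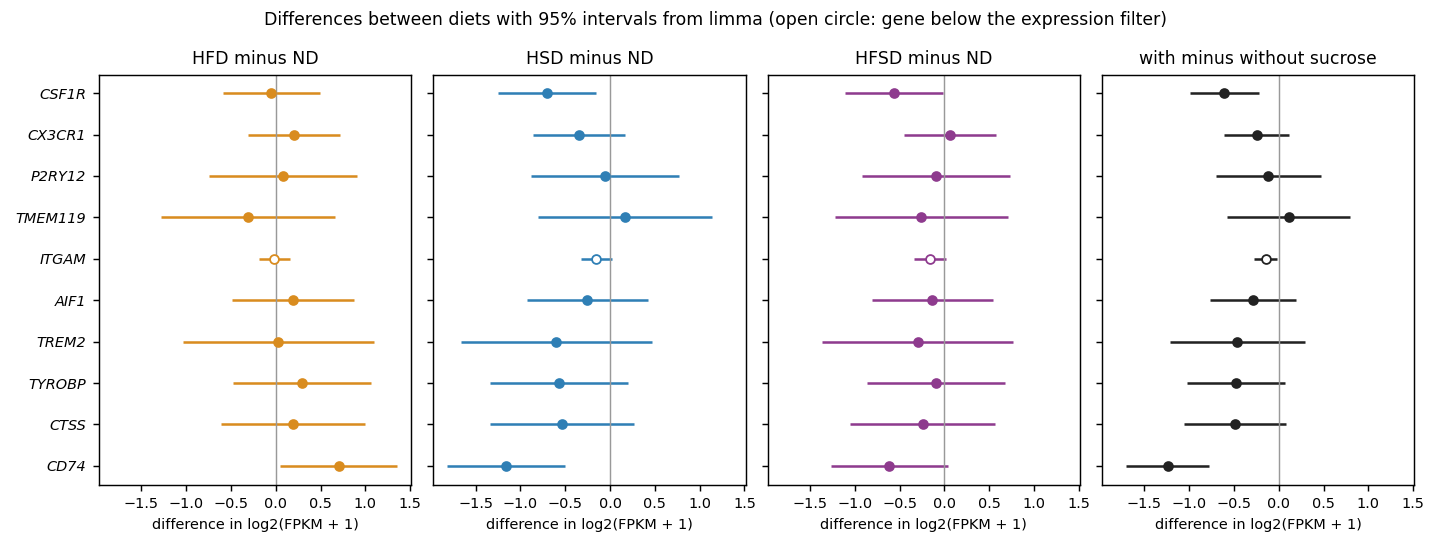
Differences in log2(FPKM + 1) of the 10 microglia genes for each diet against ND and for the diets with against those without sucrose, as points with 95% intervals from limma; the open circle is ITGAM, which was below the expression filter. The intervals of CD74 lie below 0 under HSD and with sucrose and above 0 under HFD, those of CSF1R below 0 under HSD, HFSD and with sucrose, that of ITGAM below 0 with sucrose, and none of these passed adjustment over all genes.

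The diets cross fat with sucrose, so the 4 retinas fed sucrose were compared with the 4 fed none within the same model. The study itself did not make this comparison. CD74 and CSF1R were the members furthest apart on log2(FPKM + 1), a scale that holds back low genes, while by the plain ratio of means CTSS, 2.18 times as high without sucrose, came before CSF1R. CD74 was at 2.19±0.937 FPKM with sucrose and 6.67±2.57 without (s.d., n=4 each), 3.04 times as high without, with a log2 fold change of -1.24 (s.e. 0.197, 95% interval -1.70 to -0.78, limma adjusted p=0.0629). Without ND replicate 2 its adjusted p by limma was 0.0480, and over the other alternatives it ran up to 0.179. CSF1R was at 0.935±0.241 FPKM with sucrose and 1.95±0.365 without, 2.09 times as high without, with a log2 fold change of -0.61 (s.e. 0.165, 95% interval -0.996 to -0.226, limma adjusted p=0.151). Neither gene passed adjustment over all genes with all 8 retinas in the fit.

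The other members had smaller log2 fold changes on this scale, and 0 of them were called. CTSS (log2 fold change -0.49, adjusted p=0.329 by limma), TYROBP (-0.48, 0.316) and TREM2 (-0.46, 0.466) lay on the same side, with overlap between the retinas with and without sucrose. Without ND replicate 1 they were at -0.23, -0.29 and -0.13, and without ND replicate 2 at -0.74, -0.67 and -0.80. AIF1 had a log2 fold change of -0.29 with a 95% interval from -0.77 to 0.19, and CX3CR1 one of -0.25 (adjusted p=0.425 by limma). With 1 retina left out these ran from -0.47 (without ND replicate 2) to -0.11 (without ND replicate 1) for AIF1, and from -0.35 to -0.14 for CX3CR1, the latter without ND replicate 1 or HFSD replicate 1. For P2RY12 (-0.12) and TMEM119 (0.11) the direction itself turned when 1 retina was left out. P2RY12 turned to 0.088 without ND replicate 1 and to 0.089 without HSD replicate 2, and TMEM119 to -0.21 without ND replicate 2. ITGAM had a log2 fold change of -0.15 without the filter (s.e. 0.0514, limma adjusted p=0.265), a scale on which a gene this low cannot move far.

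Of the 9 tested members, 8 were lower with sucrose, at a median log2 fold change of -0.46 against -0.0073 over all genes. Apart from AIF1 and CTSS, which passed the filter through retinas without sucrose, 6 of 7 were lower, and the count over members is a description only. Without ND replicate 1 it was 7 of 9 at a median of -0.14, and without HFD replicate 1 the median was -0.30. With sucrose, CD74 and CSF1R lay below every retina without it, 2 of 9 where 6.48% of all tested genes did so. By limma 0 members were called at an adjusted p under 0.05, against 0.344% of genes, and CD74 and CSF1R had an unadjusted p under 0.05, against 18.3% of genes. Limma-voom on fragments recovered from the FPKM steps also called 0.

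With fat, 8 of 9 members were higher, at a median of 0.17 against 0.0072 over all genes, and without ND replicate 2 the number was 3. CD74 was at 5.64±3.50 FPKM with fat and 3.22±2.16 without (s.d., n=4 each), with a log2 fold change of 0.62 (s.e. 0.197, limma adjusted p=0.9996), and the retinas overlapped. By limma 0 members were called, against 0.00819% of genes, and CD74 was the only one with an unadjusted p under 0.05, against 3.2%. In 0 of the 9 did the retinas with and without fat stay apart (1.34% of tested genes did). The interaction of fat and sucrose called 0 members by limma (0.00819% of genes), and 0 had an unadjusted p under 0.05 (3.74% of genes). For CD74 the interaction was -0.16 on the log2 scale with a 95% interval from -1.08 to 0.77, so these retinas do not show whether fat acts on it differently with sucrose.

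CD74 works with MHC class II molecules, and 10 of 24 genes of that group had an entry, 7 of them tested. All 7 were lower with sucrose, where 51.3% of all tested genes were, at a median log2 fold change of -0.28. Among the 7, HLA-DMA (-0.0084) and RFXAP (-0.018) hardly differed, and RLA-DMB reached 1 FPKM only without sucrose. By limma 0 of the 7 passed adjustment and 2 had an unadjusted p under 0.05, as had 9.16% of all tested genes in that direction. RLA-DR-ALPHA, the rabbit class II alpha chain, was at 2.49 and 1.58 FPKM under ND, 3.03 and 4.41 under HFD, 0.152 and 0.601 under HSD, and 0.700 and 1.01 under HFSD. Its diets stood in the same order as for CD74, with no overlap between the retinas with and without sucrose, at a log2 fold change of -1.24 (adjusted p=0.0583 by limma) from 3 to 101 fragments. LGMN, a lysosomal protease of antigen processing, had a log2 fold change of -0.28 (adjusted p=0.164 by limma). CIITA, the master regulator of class II transcription, stayed between 1.64 and 2.36 FPKM in all retinas (log2 fold change -0.10, adjusted p=0.705 by limma). HLA-DMA, which loads peptide, was at 1.19 and 1.04 FPKM under ND, 2.53 and 1.49 under HFD, 1.78 and 1.29 under HSD, and 1.02 and 1.97 under HFSD, with overlap between the retinas with and without sucrose.

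**Figure D4:**
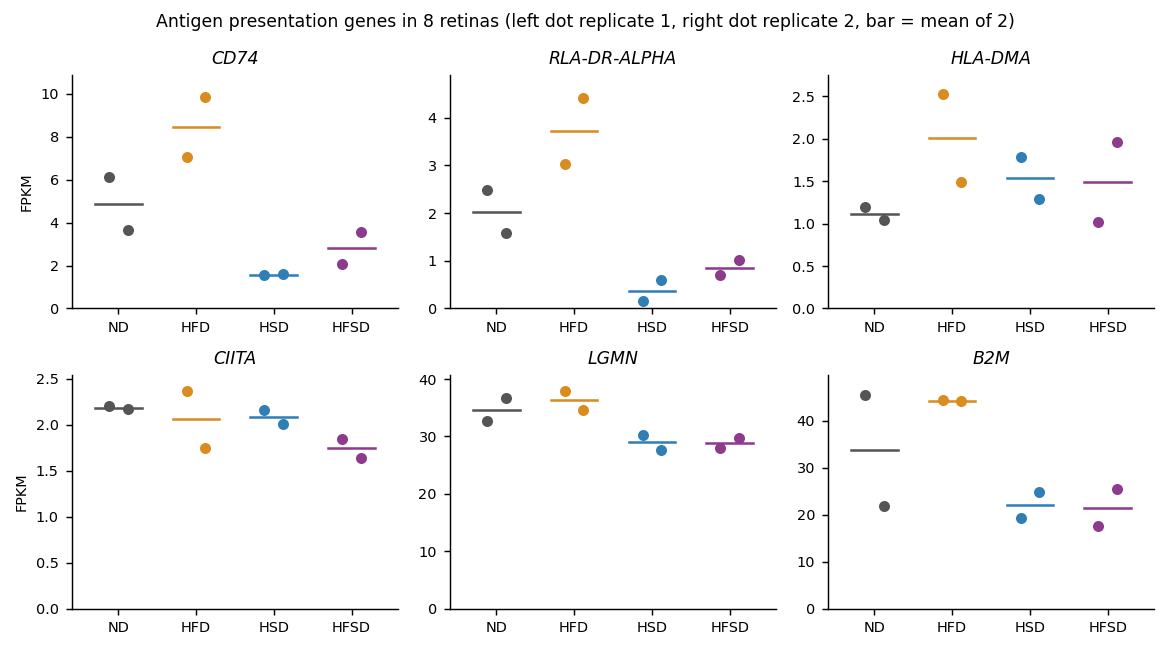
FPKM of CD74 and 5 other genes of antigen presentation in the 8 retinas, grouped by diet, each panel with its own axis from 0; dots are retinas and bars the mean of 2. CD74 and RLA-DR-ALPHA share the order HFD, ND, HFSD, HSD, while HLA-DMA and CIITA show no gap between diets with and without sucrose.

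Of the genes of MHC class I and the interferon response, 11 were tested, 9 were lower with sucrose and 3 of the 11 were lower with an unadjusted p under 0.05, beside the same 9.16% of tested genes. B2M, the class I light chain, was at 45.5, 21.9, 44.4, 44.2, 19.3, 24.8, 17.6 and 25.4 FPKM from ND to HFSD (log2 fold change with sucrose -0.77, adjusted p=0.169 by limma). ND replicate 2 lay within the range of the sucrose retinas, as it did for CX3CR1, P2RY12, TREM2, TYROBP and CTSS.

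The ligands of the members' receptors come largely from neurons and other retinal cells. CSF1, a ligand of CSF1R, was at 1.15±0.181 FPKM without sucrose and 0.472±0.185 with it (s.d., n=4 each; log2 fold change -0.55, adjusted p=0.162 by limma), and its retinas did not overlap. CSF1 too reached 1 FPKM in retinas without sucrose alone, and so passed the filter through the group where it was high. IL34, the other ligand and by far the more abundant, was at 35.3±4.36 and 29.4±3.40 FPKM (log2 fold change -0.26, adjusted p=0.267 by limma). Its log2 fold change ran from -0.35 to -0.16 with 1 retina left out. CX3CL1, fractalkine itself, was between 13.9 and 21.6 FPKM (log2 fold change 0.21, adjusted p=0.403 by limma), and ran from 0.11 to 0.30 on the log2 scale with 1 retina left out.

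Of 18 other homeostatic genes of microglia, 12 had an entry and 10 were tested, of which 9 were lower with sucrose (median -0.23). In that direction 3 had an unadjusted p under 0.05 (9.16% of tested genes), and 1, TGFBR1, had it in the other, as had 9.17% of tested genes (log2 fold change 0.32, adjusted p=0.147 by limma). The 3 were the chains of C1q, the recognition molecule of the classical complement pathway, which microglia make: C1QC (-0.87, adjusted p=0.0916 by limma), C1QA (-0.67, 0.181) and C1QB (-0.53, 0.161). C1QC was at 4.82 and 4.12 FPKM under ND, 7.41 and 4.11 under HFD, 2.72 and 2.46 under HSD, and 1.99±0.0207 (s.d., n=2) under HFSD, every retina with sucrose below every one without. GPR34, a lysophospholipid receptor, overlapped between the retinas with and without sucrose, at 0.899 to 2.89 FPKM without sucrose and 1.35 to 2.41 with it.

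Of 10 myeloid transcription factors, 9 had an entry and 5 were tested, of which 4 were lower with sucrose, 1, CEBPB, with an unadjusted p under 0.05 (9.16% of all tested genes). CEBPB was at 26.8 FPKM in HFD replicate 2 and at 4.35 to 5.58 in the other retinas without sucrose. With sucrose it was at 1.38 to 5.46 FPKM, so the retinas overlapped. SPI1, the factor that sets myeloid identity, was between 0 and 0.345 FPKM and was not tested, and IRF8 was between 0.447 and 1.64 FPKM, with overlap between the retinas with and without sucrose. Of 16 genes of TREM2 and TYROBP signalling, 13 had an entry and 6 were tested. In that group 4 were lower with sucrose and 1 had an unadjusted p under 0.05, against the same 9.16%, CLU, which Müller cells express strongly. Among the lower genes of these groups, FLI1 and LYN reached 1 FPKM only without sucrose. SYK, the kinase bound by TYROBP, was at 0 to 0.132 FPKM.

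Of 38 leukocyte and phagocyte genes, 29 had an entry and 14 were tested, 7 lower and 7 higher with sucrose, with a median of -0.09. SRGN was the only gene of these groups that was called. It encodes serglycin, the proteoglycan of leukocyte granules, which other cells make too, and fell from 50.7±11.9 FPKM without sucrose to 9.34±2.83 with it (s.d., n=4 each; log2 fold change -2.34, adjusted p=0.0011 by limma). It was at 38.8 and 42.3 FPKM under ND, where every member was below 10, so its level was of another order than that of the microglia genes. LCP1, an actin-bundling protein of leukocytes (log2 fold change -0.50, adjusted p=0.117 by limma), and LAPTM5, a lysosomal protein of leukocytes (-0.72, 0.213), had an unadjusted p under 0.05, which with SRGN makes 3 of 14 lower, beside 9.16% of tested genes. LAPTM5 ran from -0.999 to -0.433 with 1 retina left out. CORO1A and CYBB, also leukocyte genes, overlapped between the retinas with and without sucrose, at 1.51 to 3.74 and 2.54 to 5.11 FPKM. PTPRC, the pan-leukocyte antigen CD45, was at 0.0523 to 0.208 FPKM and not tested.

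Genes that microglia raise when activated did not move in a body. Of 23, 17 had an entry and 12 were tested, 9 lower and 3 higher with sucrose. The 5 with an unadjusted p under 0.05 that were lower, again beside 9.16% of tested genes, were CD9 (log2 fold change -1.22, adjusted p=0.150 by limma), SPP1 (-0.97, 0.108), CTSH (-0.62, 0.0916), CD63 (-0.42, 0.169) and CST7 (-0.31, 0.149). Of these, SPP1, osteopontin, was at 217 to 716 FPKM and CD63 at 78.5 to 143, levels far above the microglia genes. CST7, at 7.02 to 10.6 FPKM, was above every member but CD74. Neurons such as ganglion cells make SPP1 as well. Without ND replicate 1, the adjusted p of SPP1 by limma was 0.0190. IGF1 (0.41, 0.207) and LPL (0.41, 0.209), a growth factor and a lipase, had an unadjusted p under 0.05 among the 3 that were higher, beside the 9.17% of all tested genes in that direction. Leaving out 1 retina moved IGF1 between 0.26 and 0.56 and LPL between 0.28 and 0.53.

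Markers of other immune cells were not alike. MRC1 and CD163, receptors of perivascular macrophages, were near 0 at 0.00715 to 0.166 and 0 to 0.0993 FPKM, and CD3E, of T cells, at 0 to 0.103. Of 19 border macrophage and monocyte genes 11 had an entry and 1 was tested, the scavenger receptor STAB1 at 0.222 to 3.87 FPKM, and their summed level was 1.35 to 6.20 FPKM without sucrose and 2.44 to 3.81 with it. Of 20 lymphocyte genes 14 had an entry and 1 was tested, JCHAIN, the joining chain of antibodies, at 5.18 to 9.23 FPKM, and their summed level was 6.11 to 9.31 and 6.97 to 10.5 FPKM. Of the lists of other retinal cells, 9 of 12 tested pigment epithelium genes, 5 of 11 of Müller cells and astrocytes, 1 of 9 endothelial, 1 of 3 skeletal muscle and 0 of 9 rod genes had an unadjusted p under 0.05 and were lower with sucrose, as had 9.16% of tested genes, 1 rod gene was higher, and the 1 tested blood gene was neither. Of the 9 pigment epithelium genes 1, LRAT, reached 1 FPKM only without sucrose. By limma 0 genes of these lists were called. These lists were written with earlier results of the same retinas known.

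Across the 8 retinas the genes that ran most alike with the members, by Pearson's r of log2(FPKM + 1) over all tested genes, were partly the members themselves. AIF1 and CTSS had an r of 0.985 with each other and TYROBP had one of 0.954 with CTSS. Among genes with a symbol, for CD74 the closest gene was RLA-DR-ALPHA (r=0.978), for CSF1R it was PRRG1 (0.981) followed by CD9 (0.979), and for CTSS the leukocyte gene LAPTM5 stood beside AIF1 (0.985). AIF1 ran closest with RARRES1 (0.993), TREM2 with TMEM123, TYROBP with KIFC1 (0.969), CX3CR1 with PROCA1 (0.937), P2RY12 with ABLIM3 (0.987) and TMEM119 with PLAU (0.957). Each r rests on 8 libraries that share diet and tissue makeup and was picked from the top of 12204, so it is a description only.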

How the data were processed

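RNA of 8 retinas was sequenced on a HiSeq 2500 after TruSeq library preparation. The deposited table holds FPKM per gene and library. The authors made it with FastQC, read trimming, TopHat2 and in-house R code, and only uniquely placed fragments entered the FPKM, so genes with near-identical copies may read low. The genome build is not given in the sources used here, so no coordinates or sequences are printed. No value column lacked a sample (0). Whole fragments were recovered from the FPKM steps for 142744 of 142752 values above 0 (each less than 0.1 fragment from a whole number), and simulated recovery was exact for 99.7% of 3924 genes. Intervals from fragments cover counting error only.

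The test covered the 12204 protein-coding genes that reached 1 FPKM in 2 or more libraries and used limma 3.58.1 in R 4.3.3 on log2(FPKM + 1), a scale that understates changes of low genes, with 4 diet means and a mean-variance trend, and Benjamini-Hochberg adjustment over all of them. In data simulated for HSD against ND over 12204 genes, 197 of 200 genes changed by a log2 of 2 were called, with 8 false calls. The changed genes were drawn above a fragment minimum that most members did not reach, and the same spread was set for all genes. The simulation therefore does not show how often a change in such low genes would be called. Replicate numbers are the labels' own and did not pair the samples. The members, the 16 marker lists and all tests were chosen with earlier results of these data known. Genes named are the members, their ligands and partners, list genes with an unadjusted p under 0.05, SRGN, and the genes most correlated with each member. GPR34, CORO1A, CYBB, HLA-DMA, RFXAP, LGMN, B2M and the markers of other cells were named as list members after their values were seen. Alternatives were another pseudocount, no filter, TPM, median-ratio scaling, voom, a replicate block, fits of fewer groups and leaving out each retina.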

Additional observations from a re-analysis of the deposited data

How the results depend on the processing

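By limma, 0 members were called in all 6 comparisons under every alternative, except with ND replicate 2 left out of the sucrose comparison, where CD74 was called, so that leaving out 1 retina gave 0 to 1. The log2 fold change of CD74 with sucrose ran from -1.58 to -1.09 over 15 alternatives and its adjusted p from 0.0480 to 0.179, and that of CSF1R from -1.04 to -0.51 with an adjusted p from 0.0864, in a fit of 2 groups of 4 libraries chosen after seeing the data, to 0.371. SRGN was called under all 15 alternatives, and RLA-DR-ALPHA under 0. CTSH was called only with those 2 groups (adjusted p=0.0384 by limma) and SPP1 only without ND replicate 1 (0.0190).

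The counts past the fold limits moved more. With a pseudocount of 0.1 HFD had 2, HSD 7 and HFSD 5, and with TPM 2, 5 and 2, against 1, 3 and 1. With 1 retina left out they ran from 0 to 4, from 2 to 5 and from 0 to 5. Left-out retinas also turned the sign of CSF1R in HFD (-0.23 to 0.13; 0.071 without HFD replicate 2), of P2RY12 with sucrose (-0.32 to 0.089; 0.088 without ND replicate 1) and of TMEM119 with sucrose (-0.21 to 0.43). Of 45 differences of the 9 tested members in the 5 comparisons other than the interaction, 26 changed sign when 1 retina was left out (8 in HFD, 4 in HSD, 7 in HFSD, 2 with sucrose and 5 with fat), and 0 did under the other alternatives. The median over the 9 was -1.03 by voom and -0.97 with a pseudocount of 0.1 in HSD (-0.53), -0.81 and -0.75 with sucrose (-0.46), and 0.41 by both with fat (0.17). With an arm of 1 retina, its spread was taken to be that of the other diets.

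Replicate numbers did not mark pairs: deviations of same-numbered retinas correlated at -0.16 to 0.081 across diets. With a replicate block, 0 members were called, the adjusted p of CD74 with sucrose was 0.103 by limma, and the genes called with sucrose numbered 25 against 42. That number was 8 without the filter, 22 with TPM, 18 by voom, 141 with 2 groups, and 4 to 82 with 1 retina left out. In HSD 7 genes were called, against 3 without the filter, 2 by voom, 3 with only the 4 libraries compared and 3 to 17 with 1 retina left out. In HFSD the 2 genes became 4 with TPM, voom or the block, 0 with only the 4 libraries and 2 to 11 with 1 retina left out. In HFD, with fat and in the interaction 1 gene was called, against at most 2, 5 and 10 over the alternatives. Depth limits some member values, since 16 of 80 rest on fewer than 20 fragments, and those of TMEM119, a gene of 816 bases, went down to 3.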
